A study of Mus musculus with 21 samples.

Results

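The receptor chains described here are 10 genes, of 24391 gene symbols counted, whose products pass cytokine signals to the kinase JAK1. They were chosen by symbol as 6 chains of the IL-6 (gp130) family, Il6ra, Il11ra1, Cntfr, Il6st, Lifr and Osmr, and 4 interferon receptor chains, Ifnar1, Ifnar2, Ifngr1 and Ifngr2. All 10 were present in the count files and all 10 passed the low-count filter in every comparison below. RNA sequencing was performed on the brain, liver and skin of 7 newborn (P0) C57BL/6 mice, 2 Jak1 knock-in (KI) mice and 5 wild-type (WT) mice, which gave 21 libraries. The KI mice were heterozygous for H595D, an amino acid change in JAK1, together with the synonymous changes I596I and Y597Y, and the WT mice carried none of the 3. Per the study's methods the KI allele was made in zygotes with CRISPR-Cas9 and passed on by a single mosaic male, so both KI mice trace to 1 founder, and mice with the synonymous changes alone were not analysed here. Sex and litter are not given in the labels.

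IL-6, IL-11 and ciliary neurotrophic factor bind an α chain on the cell surface, and this brings together gp130, encoded by Il6st, with another gp130 or with the LIF receptor. LIF and oncostatin M need no such α chain and bind gp130 with the LIF or oncostatin M receptor directly. Type I interferons join the chains encoded by Ifnar1 and Ifnar2, and interferon-γ joins those encoded by Ifngr1 and Ifngr2. The chains have no kinase activity of their own; JAK1 and another Janus kinase bound to their intracellular parts phosphorylate STAT proteins, which enter the nucleus and switch on target genes that include the feedback inhibitor Socs3.

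The libraries held between 26549326 and 38388133 counts on genes. The tissue labels held by their markers. The summed level of 6 neuronal genes was 8308 to 8627 counts-per-million (CPM) in WT brain against at most 14.7 in WT liver and 86.7 in WT skin. That of 6 hepatocyte genes was 142381 to 161453 in WT liver against at most 33.9 in WT skin and 2414 in WT brain. That of 6 epidermal genes was 1435 to 16195 in WT skin against at most 2.71 in WT liver and 102 in WT brain. The library of WT 5 brain stood apart: 1.76% of its uniquely aligned reads were ambiguous against 1.15% to 1.19% in the other 6 brain libraries, it had 17834 genes with a count against 18259 to 18520, and its hepatocyte gene sum was 2414 CPM against a WT median of 366. The brain differences between KI and WT mice are therefore also given without it, and of the WT tissue calls of the members leaving out WT 5 changed 1, Cntfr between skin and brain. The sum of 5 choroid plexus genes in WT 5 brain was 80.6 CPM, the highest of the WT brains, whose median was 55.4. The KI brains had 77.5 to 81.8 CPM on that list and 882 to 995 CPM on the hepatocyte list. The hepatocyte list was Alb, Apoa1, Apob, Serpina1a, Afp and Ttr, and its sum does not show which of these genes carried the brain reads. The source of these reads was not tested. These are whole-tissue libraries, in which fewer cells of a type and less RNA per cell cannot be told apart.

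In the NCBIM37 (mm9) genome, 7 of the 10 genes lie near another member. Ifnar2 (chr16:91373028-91419696), Ifnar1 (chr16:91485483-91507686) and Ifngr2 (chr16:91547317-91565414) stand in that order on the plus strand of chromosome 16, within 192 kb. Osmr (chr15:6763577-6824313, minus strand) and Lifr (chr15:7079559-7147489, plus strand) are separated by 255 kb. Cntfr (chr4:41604529-41644121, minus strand) and Il11ra1 (chr4:41647021-41716347, plus strand) are separated by 2.9 kb, on the chromosome that also holds Jak1 (chr4:100824972-100937887, minus strand). Il6st (chr13:113265216-113297068, plus strand), Il6ra (chr3:89673246-89717084, minus strand) and Ifngr1 (chr10:19311755-19330035, plus strand) each lie alone on their chromosome. Ifnar2 shares 569 exonic bases, 14.6% of its exon length, with Il10rb on the same strand, so reads of these 2 genes can be ambiguous, and Il11ra1 has a near-identical copy, Il11ra2, which had no count in any of the 21 libraries. Reads without a unique alignment were not counted on genes, so reads that fit both copies would be missing from Il11ra1 too. How many were lost in this way was not tested.

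The promoter windows of Il6st and of the 3 neighbouring interferon receptor genes are shown because Il6st and Ifngr2 are the chains on which the comparison of KI with WT mice below turns, and Ifnar1 and Ifnar2 are the neighbours of Ifngr2. Each runs from 250 bases before to 50 bases after the RefSeq transcription start, 5′ to 3′ on the strand of the gene, in GRCm38.p6: Il6st chr13:112463820-112464119, Ifnar2 chr16:91372533-91372832, Ifnar1 chr16:91484965-91485264 and Ifngr2 chr16:91546809-91547108, all on the plus strand. These coordinates belong to a later build than the mm9 coordinates above. Capitals mark the STAT motif TTCNNNGAA, which was searched on both strands together with GAAANNGAA, the core of an interferon response element.
Il6st: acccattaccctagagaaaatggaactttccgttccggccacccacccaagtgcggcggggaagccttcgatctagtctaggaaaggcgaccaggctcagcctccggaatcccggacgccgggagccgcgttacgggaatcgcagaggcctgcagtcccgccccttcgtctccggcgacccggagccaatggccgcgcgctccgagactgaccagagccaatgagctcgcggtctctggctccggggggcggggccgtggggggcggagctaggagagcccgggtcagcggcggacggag
Ifnar2: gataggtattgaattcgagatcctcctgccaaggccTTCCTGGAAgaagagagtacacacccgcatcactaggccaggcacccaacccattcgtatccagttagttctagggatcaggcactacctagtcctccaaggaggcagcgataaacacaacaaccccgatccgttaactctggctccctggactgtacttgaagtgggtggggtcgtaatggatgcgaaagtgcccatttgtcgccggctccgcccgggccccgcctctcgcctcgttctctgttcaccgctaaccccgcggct
Ifnar1: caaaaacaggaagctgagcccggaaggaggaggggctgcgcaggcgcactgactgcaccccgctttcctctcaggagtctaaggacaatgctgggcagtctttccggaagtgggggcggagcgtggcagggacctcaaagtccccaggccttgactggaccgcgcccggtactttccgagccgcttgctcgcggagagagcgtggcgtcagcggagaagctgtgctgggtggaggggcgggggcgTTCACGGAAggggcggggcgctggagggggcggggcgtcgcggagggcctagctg
Ifngr2: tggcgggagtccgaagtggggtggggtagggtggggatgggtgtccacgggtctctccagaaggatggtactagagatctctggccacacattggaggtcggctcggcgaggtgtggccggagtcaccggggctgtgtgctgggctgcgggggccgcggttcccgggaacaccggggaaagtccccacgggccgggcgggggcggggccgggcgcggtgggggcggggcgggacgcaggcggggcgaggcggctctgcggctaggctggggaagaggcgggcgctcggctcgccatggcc
TTCNNNGAA was found in the windows of Ifnar1 and Ifnar2 and not in the windows of the other 8 genes, and GAAANNGAA was found in none of the 10. Of the 32851 windows of the same length in the RefSeq table, 8.30% held TTCNNNGAA and 8.56% held GAAANNGAA, so a match is common. These matches describe the letters of the window and do not identify a binding site.

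The tissue distribution in WT mice was examined first, as RPKM, the reads scaled by library depth and by the exon length of each gene so that genes can be compared with each other, with the SD over 5 mice. Most of the chains differed between tissues by more than the spread between mice. Per the study's methods the skin samples had lower RNA integrity than the liver samples. Differences between WT skin and WT liver come with that difference, and its part was not tested. The highest mean was that of Ifngr2 in the brain, Ifngr1 in the liver and Il6st in the skin. In the brain the order of mean level was Ifngr2, Cntfr, Ifnar1, Il6st, Ifngr1, Ifnar2, Lifr, Il11ra1, Osmr and Il6ra. In the liver it was Ifngr1, Il6st, Ifnar2, Il6ra, Lifr, Ifngr2, Ifnar1, Il11ra1, Osmr and Cntfr. In the skin it was Il6st, Ifngr1, Cntfr, Ifngr2, Ifnar1, Ifnar2, Il11ra1, Lifr, Osmr and Il6ra. Neighbours in these orders whose ranges over mice overlapped were Ifnar1 to Il6st, Il6st to Ifngr1, Ifngr1 to Ifnar2, Lifr to Il11ra1 and Il11ra1 to Osmr in the brain. In the liver every neighbouring pair overlapped except Ifnar1 and Il11ra1, and in the skin Ifngr1 to Cntfr, Ifngr2 to Ifnar1, Ifnar1 to Ifnar2 and Il11ra1 to Lifr overlapped. With the length of the longest transcript in place of all exons, Ifnar1 moved from rank 7 to rank 4 in the liver, and Il6st moved from rank 1 to rank 3 in the skin, so that Ifngr1 had rank 1 in both liver and skin.

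**Figure D1:**
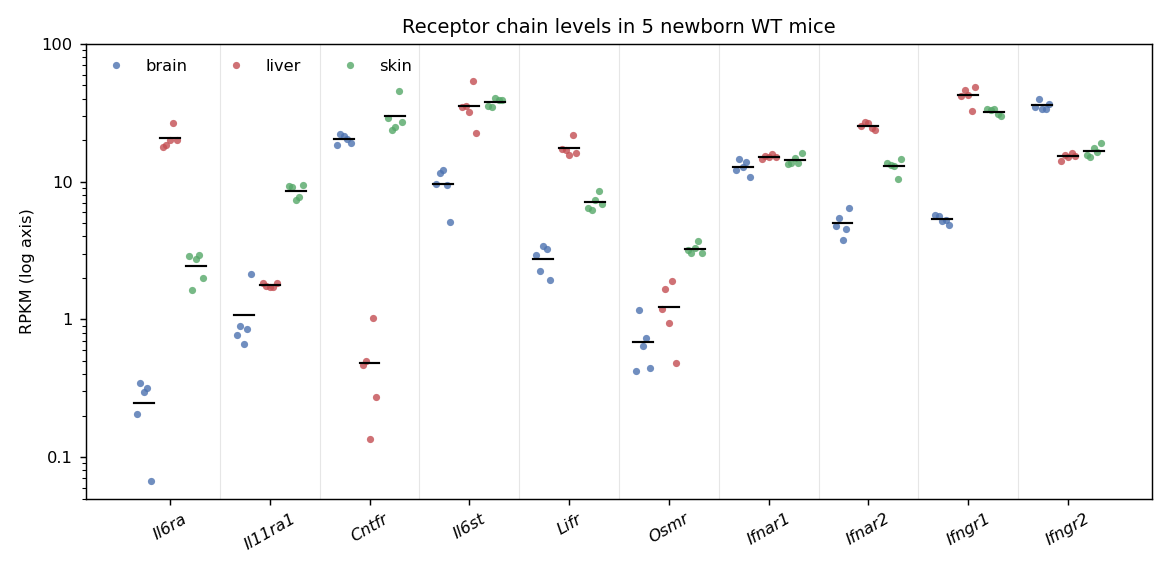
Levels of the 10 receptor chains in WT mice, in RPKM on a log axis. Each point is 1 of 5 mice and each black line is the mean in brain (blue), liver (red) or skin (green). Il6ra is lowest in the brain and highest in the liver, with no overlap between tissues, Cntfr is lowest in the liver, Ifngr2 is highest in the brain, and the Ifnar1 means lie between 12.8 and 15.2 in all 3 tissues.

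Among the ligand-binding α chains, Il6ra, the IL-6 receptor, was highest in the liver, where the 5 WT mice had 17.9, 18.6, 20.1, 26.6 and 20.2 RPKM (mean 20.7 ± 3.45 SD, n = 5). Il6ra in WT skin was 2.90, 1.64, 2.75, 2.92 and 1.99 RPKM. Il6ra in WT brain was 0.204, 0.346, 0.299, 0.317 and 0.0669 RPKM, which rest on 7 to 44 counts per library. No 2 tissues overlapped. The 15 WT libraries were then fitted together with the quasi-likelihood test of edgeR, and a difference was called at a Benjamini-Hochberg adjusted p under 0.1 over 17071 genes. Of these genes 83.4% were called between liver and brain, 79.4% between skin and brain and 72.3% between skin and liver, so a call by itself was the common outcome, and the sizes carry the information. Il6ra was 82.6-fold higher in the liver than in the brain (log2 fold change 6.37, SE 0.333, adjusted p = 4.18e-11) and 8.47-fold higher in the liver than in the skin (adjusted p = 7.09e-08).

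Cntfr, which binds ciliary neurotrophic factor and is anchored to the membrane without an intracellular part, had the opposite distribution. Cntfr in WT brain was 18.5, 22.3, 21.6, 20.3 and 19.2 RPKM (20.4 ± 1.59). Cntfr in WT skin was 28.8, 23.9, 25.0, 45.7 and 27.2 RPKM (30.1 ± 8.92), with WT 4 above the other mice. In WT liver it was 0.463, 0.501, 0.135, 1.03 and 0.275 RPKM (0.482 ± 0.342). Cntfr was thus 42.1-fold higher in the brain than in the liver (adjusted p = 9.29e-10) and 62.3-fold higher in the skin than in the liver (adjusted p = 1.00e-09). Between skin and brain the difference was 1.48-fold and passed the threshold (adjusted p = 0.0853), but 7 of 10 alternatives, among them leaving out any of WT 1, WT 2, WT 4 or WT 5, took it to the other side, with adjusted p up to 0.202. Il11ra1, the IL-11 receptor, was highest in the skin (8.62 ± 0.986 RPKM, 7.37 to 9.44), with 1.77 ± 0.0598 in the liver and 1.07 ± 0.610 in the brain. Il11ra1 in WT 5 brain was 2.14 RPKM against 0.665 to 0.897 in the other 4 WT brains. Its liver to brain log2 difference was 0.74 (adjusted p = 0.0146), 1.14 without WT 5, and -0.04 when libraries were scaled by their size only.

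The signal-transducing chains of the gp130 family were lower in the brain than in the other tissues. Il6st, the chain shared by the family, was 9.67, 11.6, 12.1, 9.42 and 5.09 RPKM in WT brain (9.58 ± 2.77), with WT 5 the lowest. In WT liver Il6st was 34.8, 35.3, 32.2, 53.7 and 22.4 RPKM (35.7 ± 11.4), and in WT skin it was 35.5, 34.7, 40.3, 39.4 and 39.0 RPKM (37.8 ± 2.50). The liver values spread most, from WT 5 to WT 4, and cover the whole range of the skin. Il6st was 3.72-fold higher in the liver than in the brain (adjusted p = 1.16e-06) and 3.95-fold higher in the skin than in the brain (adjusted p = 9.59e-07), and skin and liver differed by 0.08 on the log2 scale (SE 0.221, adjusted p = 0.754). Lifr, the LIF receptor, was highest in the liver (17.6 ± 2.42 RPKM), lower in the skin (7.11 ± 0.935) and lowest in the brain (2.75 ± 0.650), with no overlap between tissues. It was 6.37-fold higher in the liver than in the brain (adjusted p = 3.24e-10) and 2.47-fold higher in the liver than in the skin (adjusted p = 2.05e-06). Osmr, the oncostatin M receptor, was low throughout, at 3.27 ± 0.275 RPKM in the skin, 1.23 ± 0.565 in the liver and 0.681 ± 0.302 in the brain. The Osmr difference between liver and brain (log2 0.85, adjusted p = 0.0271) was not called when WT 1 (adjusted p = 0.106) or WT 4 (adjusted p = 0.122) was left out, and with libraries scaled by their size only it was 0.07 (adjusted p = 0.85).

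Of the interferon receptor chains, Ifnar1 was nearly even across tissues, at 12.8 ± 1.51 RPKM in WT brain, 15.2 ± 0.465 in WT liver and 14.4 ± 1.15 in WT skin. Its partner Ifnar2 was not. Ifnar2 was 25.5 ± 1.43 RPKM in the liver, 13.0 ± 1.57 in the skin and 4.98 ± 0.991 in the brain, with no overlap, and 5.12-fold higher in the liver than in the brain (adjusted p = 1.21e-10). The interferon-γ receptor chains had contrary distributions. Ifngr1, the ligand-binding chain to which JAK1 attaches, was 5.76, 5.63, 5.16, 5.27 and 4.84 RPKM in WT brain, 42.2, 46.6, 42.4, 32.8 and 48.9 in WT liver, and 33.6, 33.1, 33.6, 30.8 and 29.8 in WT skin. Ifngr2, the chain that brings JAK2, was 34.8, 39.8, 34.0, 33.5 and 36.6 RPKM in WT brain, 14.2, 15.7, 15.2, 16.1 and 15.4 in WT liver, and 15.7, 15.1, 17.5, 16.4 and 19.2 in WT skin. In the brain every Ifngr2 value exceeded every Ifngr1 value, and in liver and skin every Ifngr1 value exceeded every Ifngr2 value. Ifngr1 was 7.98-fold higher in the liver than in the brain (adjusted p = 8.74e-13) and 6.03-fold higher in the skin than in the brain (adjusted p = 1.12e-11), whereas Ifngr2 was 2.33-fold higher in the brain than in the liver (adjusted p = 1.78e-09) and 2.13-fold higher in the brain than in the skin (adjusted p = 1.06e-08).

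In all, 8 members were called higher and 2 lower in the liver than in the brain, 8 higher and 1 lower in the skin than in the brain, and 3 higher and 4 lower in the skin than in the liver. Small differences depended on how libraries were scaled. With library size alone as the scale, the median log2 difference of all genes was -0.85 between liver and brain and 0.81 between skin and liver, against -0.06 and 0.10 with the trimmed mean of M-values (TMM). The Ifnar1 difference between liver and brain was then -0.55 in place of 0.25, and the Ifngr1 difference between skin and liver 0.31 in place of -0.40. Relative to the median of all genes the differences were 0.31 for Ifnar1 and -0.50 for Ifngr1 under either scale. A change of scale moves all genes and their median alike, so this equality was fixed in advance.

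Jak1 itself, the edited gene, was 18.0 ± 3.30 RPKM in WT brain, 32.1 ± 2.00 in WT liver and 22.1 ± 1.56 in WT skin. Counts per gene do not show which allele was read, so they do not check the genotype. Jak1 in the liver was 196 and 208 CPM in the KI mice and 168, 164, 168, 173 and 147 CPM in the WT mice, with no overlap (log2 fold change, KI minus WT, 0.30, SE 0.0914, adjusted p = 0.125). In the skin it was 212 and 205 CPM against 171 to 197 CPM (0.18, adjusted p = 0.999), and in the brain 188 and 183 CPM against 114 to 186 CPM (0.21, adjusted p = 0.719). Jak1 was not called in any tissue.

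KI and WT mice were then compared within each tissue, in CPM after TMM scaling of the 7 libraries, to ask whether the receptor chains changed in mice with the KI allele. In the liver 1 member, Ifngr2, rose, and Il6st had the largest estimate above 0 without passing the threshold. In the skin and the brain no member was called. Fold changes between KI and WT are on the log2 scale as edgeR fits them, tested over 14966 genes in the liver, 16163 in the skin and 16322 in the brain, and with 2 KI mice each value rests on few animals.

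**Figure D2:**
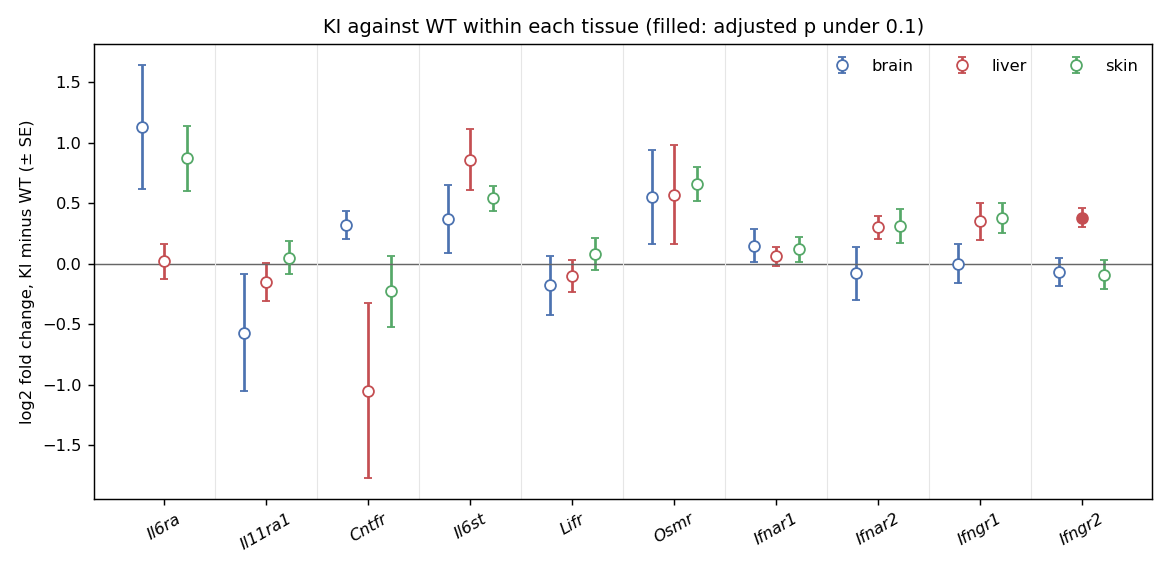
Log2 fold change of the 10 receptor chains, KI minus WT, within brain (blue), liver (red) and skin (green). Points are edgeR estimates from 2 KI and 5 WT mice, bars are SE, and a filled point has an adjusted p under 0.1. Only Ifngr2 in the liver, at 0.38, is filled, and Il6st lies above 0 in all 3 tissues, at 0.37, 0.86 and 0.54.

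In the KI liver the interferon-γ receptor chain Ifngr2 was 47.3 and 46.5 CPM, and in the WT livers it was 33.8, 36.1, 36.6, 37.2 and 36.1 CPM. The KI mice lay above all WT mice, and the WT mice were close together. The means were 46.9 ± 0.554 (n = 2) and 36.0 ± 1.32 CPM (n = 5), a 1.30-fold difference (log2 0.38, SE 0.0798, adjusted p = 0.0403). In the background 3.89% of the 14966 genes tested were called higher and 1.68% lower in the KI liver, beside 1 of 10 members called higher and 0 called lower. The call was lost without KI 1 (adjusted p = 0.216), without KI 2 (0.297), with Y-linked expression as a covariate (0.114) and in a fit of all 21 libraries (0.124), while the fold change stayed between 0.36 and 0.43 in all 14 alternatives.

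Il6st in the KI liver was 211 and 266 CPM, and in the WT livers 130, 128, 121, 195 and 82.6 CPM. The KI mice again lay above all WT mice, although KI 1 was nearer to WT 4 than WT 4 was to the other WT mice. The means were 238 ± 38.9 and 131 ± 40.6 CPM, a log2 difference of 0.86 (SE 0.253, adjusted p = 0.116), above the threshold of 0.1. It was called in 6 of 14 alternatives, with 1.04 without WT 4 (adjusted p = 0.0171) and 0.74 without WT 5 (adjusted p = 0.0998), and the lowest estimate was 0.68 without KI 2. These 6 include the replicate block, in which only WT 1 and WT 2 of the WT mice inform the KI difference. Of the other gp130-family chains none was called. Il6ra in the KI liver was 48.1 and 51.4 CPM against 42.9, 43.3, 48.7, 62.1 and 47.9 CPM in the WT livers, a log2 difference of 0.02 (SE 0.144, adjusted p = 0.953). The Lifr difference was -0.10 (SE 0.132, 110 and 130 CPM against 116 to 157) and that of Il11ra1 was -0.15 (SE 0.158, 5.48 and 4.66 CPM against 5.40 to 5.87). Osmr was 5.73 and 6.76 CPM against 1.65 to 6.44 CPM (0.57, adjusted p = 0.514), and Cntfr, on 10 and 21 counts in the KI livers and 8 to 64 in the WT livers, was 0.454 ± 0.202 against 0.944 ± 0.661 CPM with overlapping values (-1.05, SE 0.721, adjusted p = 0.492).

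The interferon chains all had estimates above 0 in the liver. Ifnar2 in the KI liver was 93.0 and 80.0 CPM against 71.1, 73.8, 74.9, 66.3 and 65.6 CPM in the WT livers, with no overlap (log2 0.30, SE 0.0972, adjusted p = 0.152). Its overlapping neighbour Il10rb was 43.6 ± 2.17 and 39.4 ± 5.38 CPM (log2 0.15, adjusted p = 0.609). Ifngr1 was 97.2 and 121 CPM against 86.2, 92.3, 87.4, 65.2 and 98.5 CPM, where KI 1 lay below WT 5 (0.35, SE 0.153, adjusted p = 0.279). Ifnar1 was 65.0 and 67.6 CPM against 62.2 to 65.5 CPM (0.06, SE 0.0780, adjusted p = 0.723). In total 3 of 10 members, Il6st, Ifnar2 and Ifngr2, were higher in each KI mouse than in any WT mouse, and 0 were lower in each KI mouse. Of all genes tested 13.0% lay above and 11.3% below in this way. At an unadjusted p under 0.05, 4 of 10 members were higher, against 9.49% of all genes, and the median log2 fold change was 0.18 over the members and -0.02 over all genes tested.

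Marker genes of macrophages and neutrophils were also higher in the KI livers, and those of erythroid cells and hepatocytes summed to less. The summed level of 6 macrophage genes was 776 to 904 CPM in the KI livers and 501 to 634 in the WT livers, and 5 of the 6 were called higher. That of 5 neutrophil genes was 5286 to 6472 against 3333 to 4348 CPM, with 2 of 5 called higher, and that of 6 hepatocyte genes was 134795 to 134944 against 142381 to 161453 CPM, with none called. The sum of 5 erythroid genes was 2390 to 2463 CPM in the KI livers against 2676 to 4007 in the WT livers, and of the 4 tested 1 was called lower and 0 had an estimate above 0. No gene of these 4 lists was at 0. Their part in the receptor values was not tested.

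**Figure D3:**
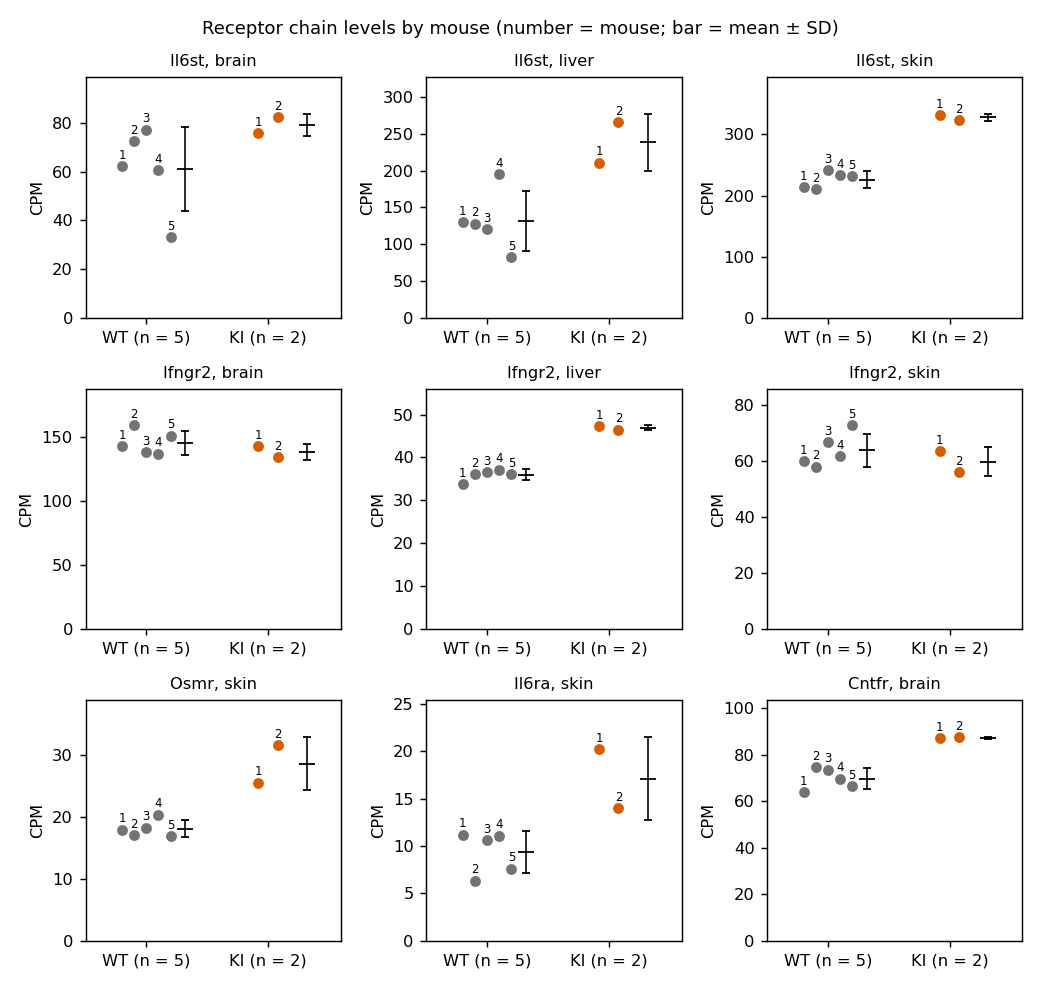
CPM of selected receptor chains in each mouse, on linear axes that start at 0. Points are single mice, with the mouse number above, grey for WT (n = 5) and orange for KI (n = 2), and the bars give the mean ± SD. The KI points lie above all WT points for Il6st in liver and skin and for Ifngr2 in the liver. They also do so for Osmr and Il6ra in the skin and for Cntfr in the brain. For Ifngr2 in the skin the KI points lie on either side of the lowest WT point.

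In the skin no member was called by edgeR, in a comparison in which 0.0247% of the 16163 genes tested were called, and the smallest unadjusted p-values among the members were those of Il6st and Osmr. Il6st in the KI skin was 332 and 324 CPM against 214, 210, 242, 233 and 232 CPM in the WT skins. The means, 328 ± 5.35 and 226 ± 13.7 CPM, differed by a log2 fold change of 0.54 (SE 0.102, edgeR adjusted p = 0.466). Osmr was 25.6 and 31.7 CPM against 18.0, 17.1, 18.3, 20.4 and 16.9 CPM (0.66, SE 0.138, adjusted p = 0.587). The Wald test of DESeq2 called both, at adjusted p = 0.000995 for Il6st and 0.0253 for Osmr, with 97 genes higher and 12 lower in all.

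Il6ra in the KI skin was 20.2 and 14.0 CPM against 11.2, 6.35, 10.6, 11.1 and 7.61 CPM in the WT skins (log2 0.87, SE 0.270, adjusted p = 0.879). Ifngr1 was 119 and 155 CPM against 111, 109, 110, 99.4 and 96.9 CPM (0.38, SE 0.125, adjusted p = 0.944), and Ifnar2 was 68.4 and 75.6 CPM against 61.7, 59.8, 59.0, 45.9 and 64.8 CPM (0.31, SE 0.141, adjusted p = 0.999). For these 3 chains too the KI mice lay above all WT mice. Thus both KI skins lay above all WT skins for 5 of 10 members and below for 0, against 4.91% and 4.84% of all genes tested. At an unadjusted p under 0.05, 4 members were higher, against 2.89% of all genes, and the median log2 fold change was 0.21 over the members and -0.03 over all genes tested.

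The other 5 chains overlapped between KI and WT skin. Lifr was 92.1 and 85.7 CPM against 74.3 to 101 CPM (0.08), Il11ra1 was 43.7 and 47.8 against 38.0 to 48.4 (0.05), and Ifnar1 was 104 and 106 against 90.8 to 109 (0.12). Ifngr2, the chain called in the liver, was 63.5 and 56.0 CPM in the KI skin against 57.9 to 72.6 CPM (-0.09, SE 0.121). Cntfr was 102 and 61.5 CPM against 77.2 to 144 CPM (-0.23). Epidermal gene levels varied widely between skin libraries: the sum of 6 epidermal genes was 838 to 13372 CPM in the KI skins and 1435 to 16195 in the WT skins. That of 6 macrophage genes was 488 to 668 against 360 to 455 CPM, with no gene of either list called or at 0. Their part in the skin values was not tested, and per the study's methods the RNA integrity of the skin samples was lower than that of the liver samples in both genotypes.

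In the brain no member was called, in a comparison in which 0% of the 16322 genes passed. The α chain Cntfr was 87.0 and 87.5 CPM in the KI brains and 63.9, 74.8, 73.6, 69.7 and 66.6 CPM in the WT brains, with no overlap (87.3 ± 0.346 and 69.7 ± 4.57, log2 0.32, SE 0.116, adjusted p = 0.391). Without WT 5 brain, the library that stood apart, the estimate was 0.33 and Cntfr was called (adjusted p = 0.0612), in a fit that called 4.14% of genes higher and 6.32% lower. Il6ra was 1.87 and 2.58 CPM in the KI brains against 0.848, 1.39, 1.23, 1.31 and 0.279 CPM, on 67 and 89 counts in the KI brains (log2 1.13, SE 0.515, adjusted p = 0.488), and 0.92 without WT 5 (adjusted p = 0.127). Both KI brains lay above all WT brains for these 2 of 10 members and below for 0, against 11.2% and 15.8% of all genes tested. At an unadjusted p under 0.05, 1 member was higher, against 2.80% of all genes, and DESeq2 called 0 members, with 56 genes higher and 458 lower in all.

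Il6st in the KI brain was 76.0 and 82.5 CPM against 62.5, 72.7, 77.4, 60.6 and 33.1 CPM. KI 1 lay below WT 3, and the estimate of 0.37 (SE 0.283, adjusted p = 0.686) became 0.23 (adjusted p = 0.250) without WT 5. Osmr was 5.49 and 6.33 CPM against 2.54 to 6.81 (0.55, SE 0.387, and 0.46 without WT 5). Il11ra1 was 4.30 and 3.60 CPM against 3.65 to 12.0, and its estimate went from -0.57 to -0.12 without WT 5. Lifr (-0.18), Ifnar1 (0.15), Ifnar2 (-0.08), Ifngr1 (0.00) and Ifngr2 (-0.07) had estimates between -0.18 and 0.15. Without WT 5 these were -0.26 for Lifr, 0.12 for Ifnar1, 0.05 for Ifnar2, whose sign turned, -0.01 for Ifngr1 and -0.04 for Ifngr2. The summed level of 4 endothelial genes was 168 to 172 CPM in the KI brains and 72.1 to 158 in the WT brains, lowest in WT 5. That of 6 neuronal genes was 7601 to 8147 CPM in the KI brains against 8308 to 8627, and that of 4 astrocyte and radial glia genes 2321 to 2328 against 2893 to 5483, both sums below all WT brains. Gene by gene, 4 of 4 endothelial, 2 of 6 neuronal and 2 of 4 astrocyte and radial glia genes had estimates above 0. No gene of these 3 lists was called or at 0, and their part in the brain values was not tested.

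Whether the difference between KI and WT depended on the tissue was tested as an interaction, over 18062 genes in all 21 libraries. No member was called in any of the 3 contrasts, in which 2.81% of genes (liver minus brain), 0% (skin minus brain) and 0.0997% (skin minus liver) passed. At an unadjusted p under 0.05 there were 3, 0 and 1 of 10 members, against 15.1%, 7.41% and 5.54% of genes. For Ifngr2 the KI difference was larger in the liver by 0.36 than in the brain (SE 0.147, adjusted p = 0.247) and smaller in the skin by -0.44 than in the liver (SE 0.148, adjusted p = 0.571). For Il6st the differences between tissues were 0.39 (liver minus brain, SE 0.385), 0.10 (skin minus brain, SE 0.385) and -0.28 (skin minus liver, SE 0.384). The Ifngr2 call in the liver was therefore not shown to be particular to the liver.

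**Figure D4:**
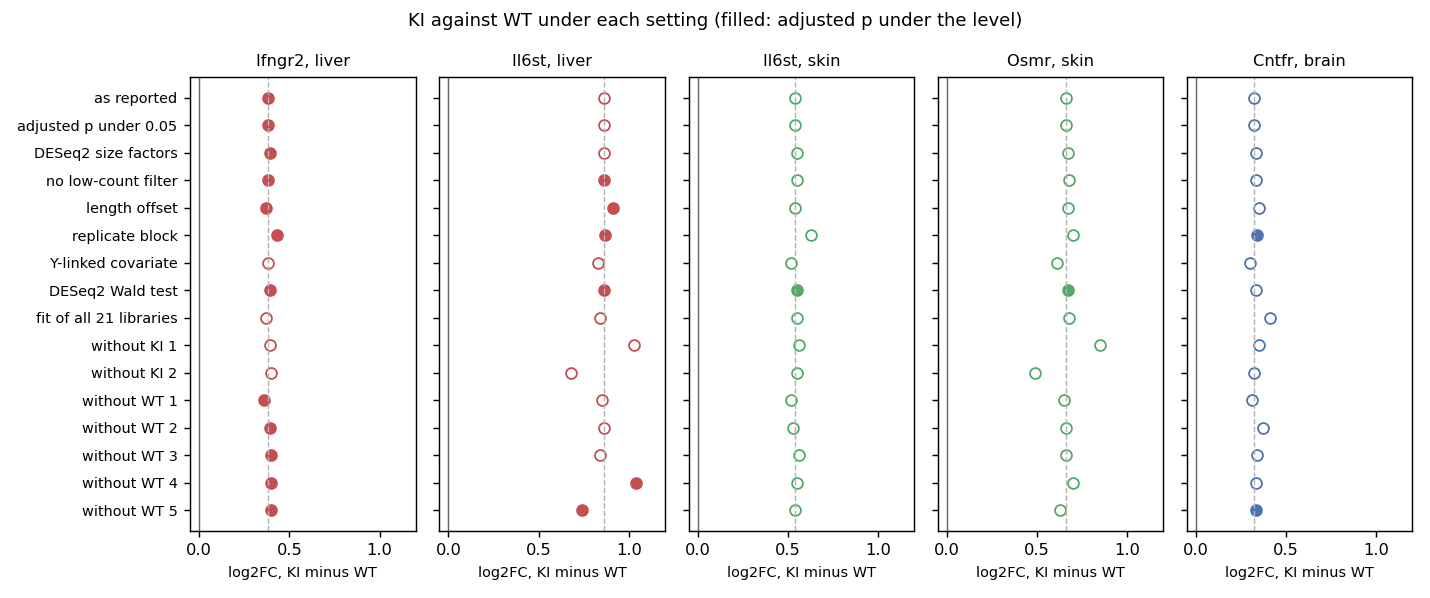
Log2 fold change, KI minus WT, of 5 member and tissue pairs as reported and under each alternative setting. A filled point has an adjusted p under the level of that setting. Estimates stay above 0 throughout, Ifngr2 in the liver between 0.36 and 0.43 and Il6st in the skin between 0.52 and 0.63, while the calls come and go with the setting.

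The ratio of chains that act in a pair was taken within each library, per exon length, as a description that does not depend on scaling. In WT liver Il6ra to Il6st was 0.495 to 0.903 with a median of 0.527, and in the KI livers it was 0.302 to 0.355, below all WT livers. The Lifr to Il6st ratio was also below all WT mice, at 0.246 to 0.264 against 0.404 to 0.721 in the liver and 0.133 to 0.140 against 0.178 to 0.218 in the skin. Il11ra1 to Il6st was 0.0204 to 0.0303 in the KI livers against 0.0322 to 0.0823. In the skin Il11ra1 to Il6st was 0.154 to 0.172 in the KI mice against 0.183 to 0.265, whereas Il6ra to Il6st overlapped, at 0.0674 to 0.0949 against 0.0471 to 0.0816. In the brain 2 ratios lay above all WT mice, Il6ra to Il6st (0.0383 to 0.0488 against 0.0132 to 0.0337) and Cntfr to Lifr (10.1 to 10.9 against 6.25 to 10, where WT 2 at 9.97 and WT 5 at 10 were close to KI 1). Osmr to Il6st overlapped between genotypes in all 3 tissues, at 0.0830 to 0.105 in KI skin against 0.0783 to 0.0945 in WT skin. Ifnar1 to Ifnar2 had a WT median of 2.70 for brain, 0.580 for liver and 1.11 for skin, and the KI livers, at 0.463 to 0.560, lay below the WT livers, at 0.565 to 0.655. Ifngr1 to Ifngr2 had a WT median of 0.152 for brain, 2.97 for liver and 1.93 for skin. The Ifngr1 to Ifngr2 ratio of the KI mice overlapped that of the WT mice in the 3 tissues. Ratios over Il6st share their denominator and are not separate results. The liver log2 differences were 0.86 for Il6st and 0.02, -0.10 and -0.15 for Il6ra, Lifr and Il11ra1. How often ratios of other gene pairs lie to 1 side was not computed. Of single genes, 13.0% lay above and 11.3% below all WT mice in the liver, 4.91% and 4.84% in the skin, and 11.2% and 15.8% in the brain.

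**Figure D5:**
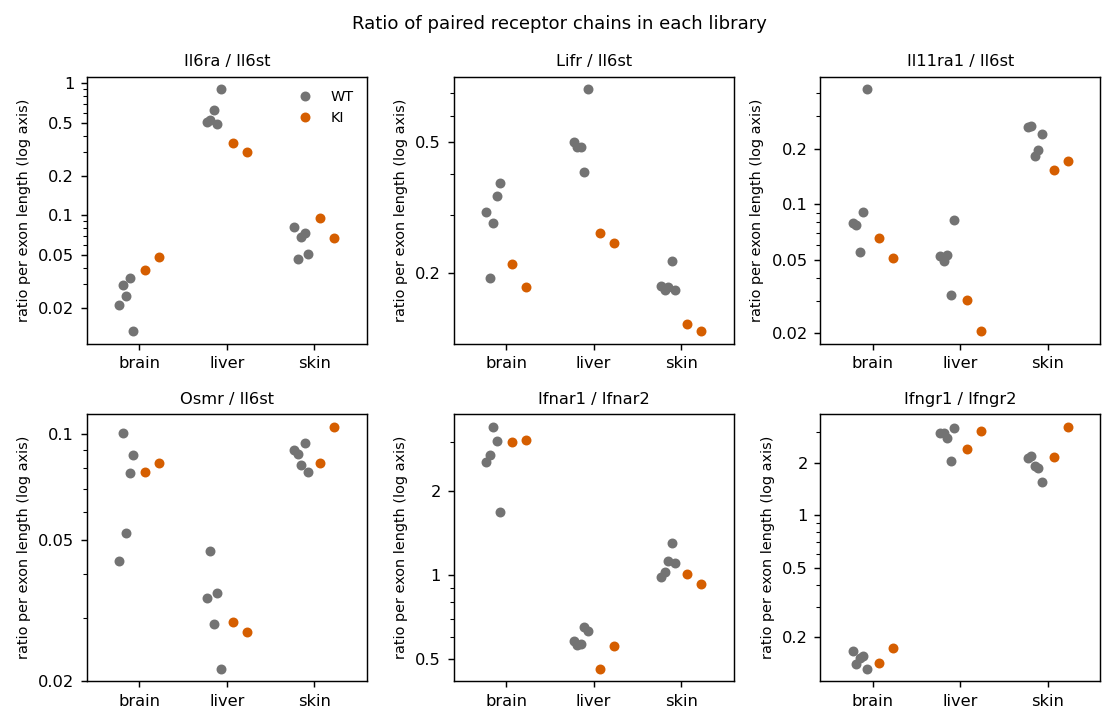
Ratio of receptor chains that act in a pair, per exon length, in each library on log axes. Grey points are WT mice (n = 5) and orange points KI mice (n = 2) in brain, liver and skin. Il6ra, Lifr and Il11ra1 over Il6st lie below all WT points in the KI liver, and Ifngr1 over Ifngr2 is between 0.132 and 0.174 in the brain and between 1.55 and 3.23 in liver and skin.

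Genes that act before and after the receptors were counted from lists written for this comparison. The counts below stand beside the 3.89% of all genes called higher and 1.68% called lower in the KI liver. In the KI liver 2 of 8 ligand genes tested rose. Il6 was 1.53 ± 0.791 CPM in the KI livers and 0.202 ± 0.144 in the WT livers, on 34 and 67 against 1 to 13 counts (log2 2.89, adjusted p = 0.0525), and Ebi3, a subunit of IL-27, was 11.5 ± 1.08 against 7.58 ± 0.991 CPM (0.60, adjusted p = 0.0839). Of 6 kinases and STATs 1 rose, Stat3, which carries the signal of gp130 (188 ± 2.59 against 140 ± 8.04 CPM, 0.43, adjusted p = 0.0377). Of 13 targets and feedback genes of gp130 signalling 2 rose, the inhibitor Socs3 (79.2 ± 4.92 against 18.6 ± 7.13 CPM, 2.09, adjusted p = 0.0120) and the secreted protein gene Lrg1 (278 ± 0.231 against 90.5 ± 13.3 CPM, 1.62, adjusted p = 0.000759). Of 14 interferon targets 9 rose, led by the transcription factor gene Irf7 (1.07, adjusted p = 0.00440) and Ifit1, whose product binds viral RNA (1.13, adjusted p = 0.00544). None of 6 other receptor chains that use JAK1, among them Il10ra (0.56, adjusted p = 0.117), and none of 6 genes of receptor shedding and trafficking was called, and no gene on these lists was called lower. The counts depended on the KI mice: 9 interferon targets became 5 without KI 1, 2 without KI 2 and 1 in the fit of all 21 libraries. Lrg1 and Irf7 were called in all 15 alternatives and Socs3 in 14, all except the one without KI 2 (adjusted p = 0.149). Ifit1 was called in 14, all except the fit of all 21 libraries (adjusted p = 0.265). Stat3 was called in 11 and Il6 in 9, both not without KI 1 or without KI 2, and Il6 not without WT 2 either. Ebi3 was called in 5.

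In the KI skin 2 of 13 gp130 targets rose, Lrg1 (40.5 ± 9.29 against 7.24 ± 2.23 CPM, log2 2.48, adjusted p = 0.0899) and the transcription factor gene Cebpd (92.3 ± 1.30 against 39.8 ± 4.47 CPM, 1.21, adjusted p = 0.0899). Both calls were lost with the replicate block, at the stricter level of 0.05, and without KI 1, KI 2, WT 1, WT 2, WT 4 or WT 5, with adjusted p up to 0.924, and Cebpd also without WT 3. Lrg1 was called in 6 and Cebpd in 4 of 15 alternatives, with log2 fold changes of 2.22 to 2.75 and 1.11 to 1.29. All 14 interferon targets had estimates above 0 in the skin with a median of 1.14, and none was called. As alternatives, the Wald test of DESeq2 called 5 of them higher, with 97 of 15561 genes higher in all. The fit of all 21 libraries called 1 higher, with 22 of 18062 genes higher in all. The kinases and STATs had a median of 0.36 in the skin and 0.23 in the brain, with 6 of 6 above 0 in both and none called. The gp130 targets had a median of 0.34 in the skin (9 of 13 above 0) and 0.11 in the brain (8 of 10). The ligands had a median of 0.21 in the skin (5 of 8 above 0) and -0.56 in the brain (1 of 5), and the other receptor chains -0.03 in the skin (3 of 6) and -0.04 in the brain (2 of 7). Il6, called in the liver, was 1.81 ± 0.967 CPM in the KI skins and 0.268 ± 0.335 in the WT skins, without a call (2.74, adjusted p = 0.906). It had 0 counts in every brain library. In the brain no gene on any of the lists was called. The median over all genes tested was -0.02 in brain and liver and -0.03 in the skin.

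The genes whose log2 CPM followed each chain most closely over the 21 libraries were read off by Pearson's r. They were Fkbp15 for Il6ra (0.993), Tmed3 for Il11ra1 (0.987), Cacna1g for Cntfr (0.994), Ms4a6d for Il6st (0.962), Ell2 for Lifr (0.989) and Adgrf5 for Osmr (0.970). For the interferon chains they were Dapk1 for Ifnar1 (0.863), Trim14 for Ifnar2 (0.992), Rab32 for Ifngr1 (0.991) and Samd10 for Ifngr2 (0.983). Among the members themselves Il6ra and Lifr were the closest pair (0.97) and Ifngr1 and Ifngr2 the most opposed (-0.95). These values describe mainly the 3 tissues, since the 7 libraries of a tissue share its composition.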

How the data were processed

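Per the study's methods, paired-end TruSeq libraries were sequenced on a NovaSeq, adapter-trimmed and mapped by TopHat2 to the mm9 genome. The submitters' processing notes also name HTSeq and DESeq, without versions. The files the authors deposited, 1 per library, give unnormalized counts of reads by gene symbol, and their 5 closing lines of unassigned reads were left out here; 80.5% to 87.63% of uniquely aligned reads were on genes. The counting mode and strand setting are not given in the sources used here.

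Groups were taken from the library titles. KI and WT mice were compared within a tissue (7 libraries), tissues within WT mice (15 libraries), and the KI difference between tissues in all 21 libraries. Counts were filtered with filterByExpr, scaled by TMM and fitted in edgeR 4.0.16 (R 4.3.3) with its quasi-likelihood test, with Benjamini-Hochberg adjustment over all genes tested and a level of 0.1. The steps were tested on simulated data. RPKM values use TMM scaling over the 15 WT libraries and the exon length of GENCODE vM1 on NCBIM37. CPM values of single genes use TMM within a tissue, and the summed levels of marker genes are CPM by library size alone. Lengths were found for 20824 symbols (85.4%). Correlations used log2 CPM with a prior count of 2. Promoter windows were those of the RefSeq table of GRCm38.p6.

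The alternatives were the size factors and the Wald test of DESeq2 1.42.0, library size alone (WT tissues), no low-count filter, a loess length correction (span 0.3, degree 1), a block for the replicate number, the mean of 4 Y-linked genes as a covariate, a level of 0.05, a fit of all 21 libraries, the longest transcript as length, and each mouse left out in turn. KI and WT mice share only numbers. WT libraries of the same number were taken as 1 mouse, which the labels do not state. The members were listed by symbol; they and the lists of other genes were chosen with earlier results of these data known. Listed pathway genes are named where called, up to 6 per list and tissue, and Il10ra, Il10rb and Il6 in skin and brain were named after their values were seen. Genes most like a member were the top 2 by Pearson's r, of which the first is given. Tables and figures used Python 3.11.15, pandas 2.3.3, numpy 2.4.6 and matplotlib 3.10.9.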

Additional observations from a re-analysis of the deposited data

Results flagged for a closer look

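A sample far from the others was looked for in the 30 groups of 5 WT values, 10 chains in 3 tissues, where chance gives about 1 in 20 groups. There were 2 such groups. Il11ra1 in WT brain was 12.0 CPM in WT 5, the next highest mouse had 4.83 CPM and the lowest 3.65, a gap of 0.858 of the range; this is the brain library that stood apart. Cntfr in WT skin was 144 CPM in WT 4, the next highest mouse had 92.6 CPM and the lowest 77.2, a gap of 0.771 of the range. Neither was among the chains called between KI and WT mice.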

How the results depend on the processing

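The main limit is the number of KI mice. In the liver, where 1 member was called higher, 2 were called without a low-count filter, with the length correction and with the replicate block, 3 by DESeq2, and 0 with the Y-linked covariate and in the fit of all 21 libraries; with a mouse left out the number ran from 0 (either KI mouse) to 2 (WT 4 or WT 5). Of all genes, those called higher in the liver were 563 of 19168 without the filter, 485 of 13740 with the length correction, 471 of 14966 with the block and 839 of 15806 by DESeq2. In the brain, where 0 were called, 1 was called with the replicate block and in the fit of all 21 libraries. With a WT mouse left out 0 to 1 was called (WT 5). Of all genes, the block called 783 higher and 1382 lower of 16322 in the brain. The fit of all 21 libraries called 173 and 441 of 18062, and the fit without WT 5 called 672 and 1026 of 16222. In the skin, where 0 were called, DESeq2 called 2, with 97 higher and 12 lower of 15561 genes in all. With library size alone, 5 members in place of 8 were called higher in WT liver than in WT brain and 7 in place of 3 in WT skin than in WT liver. Of all 17071 genes, that scale called 4546 in place of 6856 and 11144 in place of 6791 higher in these contrasts. That scale reversed Il11ra1 (-0.04) and Ifnar1 (-0.55) between liver and brain, and Ifnar1 (0.63) and Ifngr1 (0.31) between skin and liver. Relative to the median of all genes the direction of each was kept. Since the median moves with the scale, this is no test of the scale.

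The replicate block rests on numbers alone: same-numbered KI and WT libraries deviated together with r from -0.0952 to 0.198, and only KI 1 with WT 1 in the skin exceeded 0.1. With the block, Cntfr in the brain (0.34, adjusted p = 0.0894) and Il6st in the liver (0.87, adjusted p = 0.0134) were called by edgeR. Between WT tissues, libraries of 1 number had r from 0.00198 to 0.188, and the mouse as a block changed no call. Of 450 single comparisons of KI with WT under an alternative, 414 kept their direction and side of the threshold, 12 gained a call, 4 lost it and 20 without a call changed sign. A member with few counts, Il6ra in the brain or Cntfr in the liver, is limited by depth.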
